A study of Mus musculus with 4 samples.

Results

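Cathepsins are the proteases of the lysosome, and cystatins are small proteins that block the cysteine cathepsins. The 10 genes described here, *Ctsa*, *Ctsb*, *Ctsc*, *Ctsd*, *Ctsh*, *Ctsk*, *Ctsl*, *Ctsz*, *Cst3* and *Cstb*, were chosen by name from the 27998 genes of the single-cell table, and all 10 were found in it. CD45+ leukocytes were isolated from the tibialis anterior muscle of male mice aged 8 to 12 weeks, on a C57BL/6 background, after injury with cardiotoxin, a venom toxin that kills muscle fibres. Control mice were Bach1 fl/fl, so that they also carried the loxP sites around the *Bach1* exon that encodes part of the DNA-binding domain. KO mice were Bach1 fl/fl with Lyz2-Cre, in which the *Lyz2* promoter drives the recombinase in monocytes, macrophages and neutrophils. Each genotype was sampled at 2 and 4 days post injury (dpi), with 1 library for each of the 4 groups. No value below therefore measures the spread between animals, no test was run, and genotype or time and the individual library cannot be told apart.

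Most cathepsins are made as inactive proenzymes, carried to the lysosome by mannose 6-phosphate receptors and sortilin, and activated there by cleavage in the acidic lumen. Macrophages depend on them to digest engulfed debris, to process antigen and, for enzymes that are secreted, to cut extracellular matrix. BACH1 is a repressor that binds, as a dimer with small MAF proteins, to antioxidant response elements, the same elements that the activator NRF2 uses. Cystatin C, encoded by *Cst3*, is secreted and acts mainly outside the cell, and cystatin B, encoded by *Cstb*, stays in the cytosol.

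Among the members, *Ctsd* and *Ctsl* were the genes whose macrophage level differed most between the genotypes. Both lie on the minus strand of GRCm38, *Ctsl* on chromosome 13 from 64359337 to 64370890 and *Ctsd* on chromosome 7 from 142375911 to 142388038. A stretch of 30 bases that precedes the RefSeq start of each gene is shown, with the letters of the motifs searched in capitals: the antioxidant response element core TGACNNNGC for *Ctsd* and the E-box CACGTG, the core of the element that lysosomal gene regulators bind, for *Ctsl*. The *Ctsd* stretch, chr7:142387863-142387892, runs from 65 to 36 bases before the start and holds a match on each strand, and all 30 bases are annotated as 5′ UTR of a longer transcript. The *Ctsl* stretch, chr13:64370739-64370768, runs from 248 to 219 bases before the start, and 15 of its bases lie in an annotated UTR exon.
Ctsd: agcTGACTCCGCgggactGCGGCGTCAtcc
Ctsl: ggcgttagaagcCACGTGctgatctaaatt

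The RefSeq promoter table of GRCm38.p6 (250 bases before to 50 after each start) held 8 windows for 7 of the members, and *Ctsb*, *Ctsh* and *Cstb* had no entry. Searched on both strands, TGACNNNGC was found in 2 of these 8 windows, those of *Ctsd* and *Ctsz*, and in 12.4% of all 32851 promoters. CACGTG was found in 3 of the 8, those of *Ctsa*, *Ctsd* and *Ctsl*, and in 7.15% of all promoters. TGAGTCA, a related element bound by AP-1 and by BACH proteins, was found in none of the 8 and in 5.20% of all promoters. A match describes letters only and is no evidence of binding.

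The deposited files held 4177 to 6602 barcodes and 57010520 to 80228489 UMIs (unique molecular identifiers, each standing for a captured transcript) per library. After filtering, 3384 to 5677 cells per library remained, with a median of 10689 to 15080 UMIs per cell, and 78 of these cells carried a barcode that also occurred in another library. Cells were clustered without the members and named from fixed markers: macrophage-like, monocyte-like, neutrophil-like, dendritic-like and T or NK-like, hereafter written without the suffix. Macrophages numbered 1914 (control) and 1081 (KO) at dpi2 and 2961 and 2565 at dpi4, and monocytes numbered 2600 and 978 at dpi2 but only 48 and 70 at dpi4. Neutrophils numbered 629 and 825 at dpi2 and 128 and 35 at dpi4. The 3′ counts of *Bach1* were not lower in the KO macrophages (122 in control and 143 in KO at dpi2, in counts per 1000000 UMIs of the class), and reads outside the floxed exon cannot check the deletion. *Lyz2*, the gene that carries the Cre, followed the labels: its macrophage level was 8131 in the control library and 12.6 in the KO library at dpi2. Control and KO macrophages thus differed in *Lyz2* level as well as in *Bach1* genotype, and the ratios below cannot tell these apart. The macrophage level of the BACH1 target *Hmox1* was 671 in control and 10399.7 in KO at dpi2.

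Levels are given as CPM, a gene's share of all UMIs in a class of cells of a library, scaled to counts per 1000000, with exact 95% Poisson intervals that cover counting error only. The 10 members together made up 2.21% to 2.66% of all macrophage UMIs in the 4 libraries. Their share was 1.01% to 1.40% in monocytes, 0.830% to 1.21% in dendritic cells and 0.521% to 0.649% in neutrophils. T and NK cells held 0.132% to 0.184%. UMIs of these genes in them can be free RNA from lysed cells or their own transcripts, which the counts do not tell apart. Their level is therefore a reference and not a measure of free RNA. Among these classes macrophages held the largest share in each library without overlap, and the cells of the control at dpi4 in clusters given no name held 2.24%, against 2.21% in its macrophages. The shares of monocytes and dendritic cells overlapped. Ranges of a member's level in a class are over the libraries in which that class had at least 50 cells, unless cell numbers are given, and 2 libraries were compared within a cluster only where it had at least 50 cells in both.

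**Figure D1:**
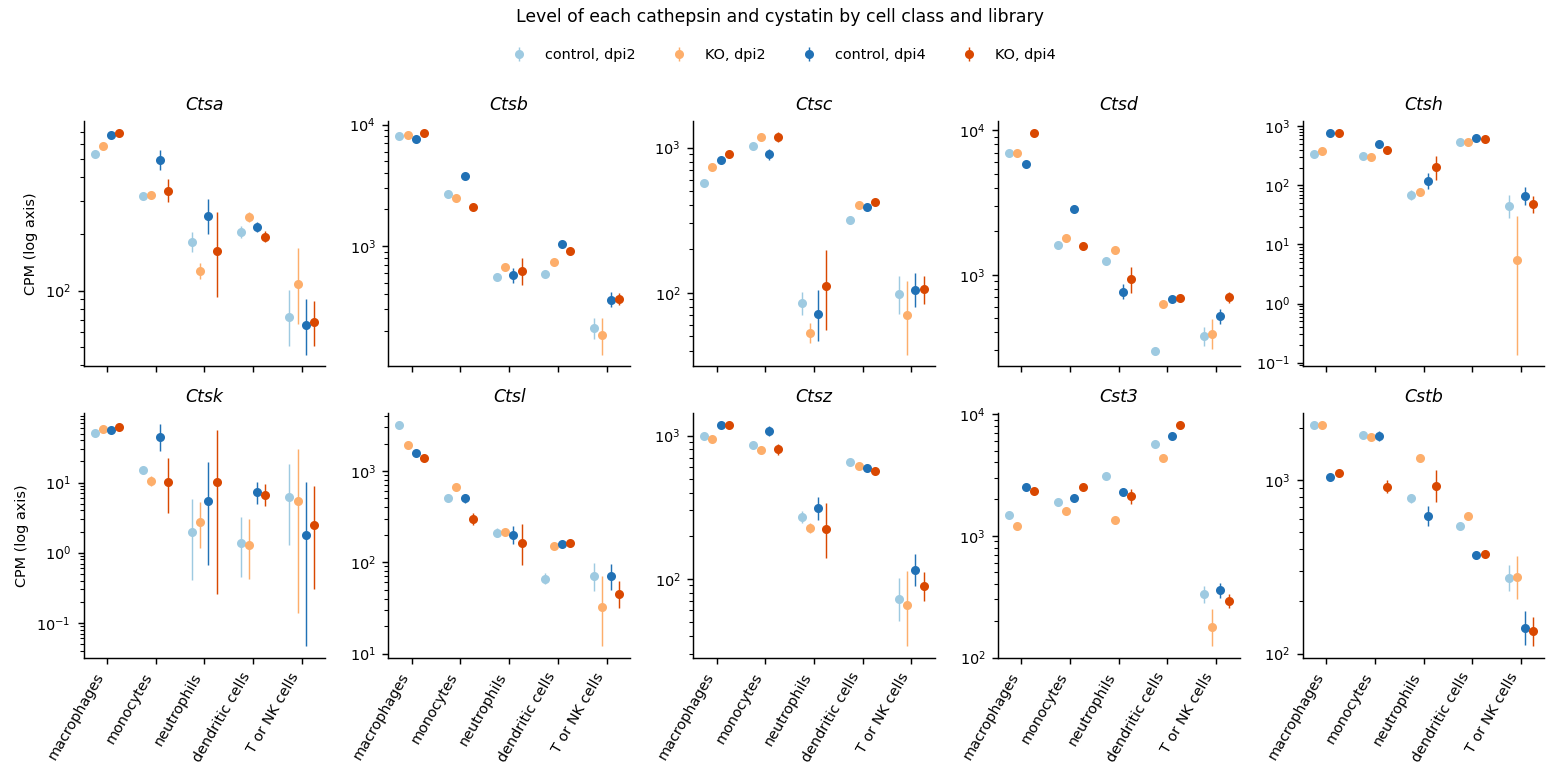
Levels of the 10 members (CPM, log axis) in 5 leukocyte classes and 4 libraries, with points for libraries and bars for exact 95% Poisson intervals. *Ctsb* in macrophages sits between 7679.8 and 8599.5 in all 4 libraries, and *Cst3* is highest in dendritic cells.

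*Ctsb*, *Ctsl* and *Ctsk* encode cysteine endopeptidases, and all 3 were highest in macrophages. *Ctsb* CPM in macrophages was 8041 and 8178 at dpi2 and 7679.8 and 8599.5 at dpi4 in control and KO. In monocytes the *Ctsb* level ranged from 2105 to 2694, in dendritic cells from 593 to 1030.3, in neutrophils from 558 to 676 and in T or NK cells from 211 to 365. The order macrophage, monocyte and then the other classes was without overlap, whereas dendritic cells and neutrophils overlapped. *Ctsl* CPM in macrophages was 3220.05 in control and 1945 in KO at dpi2, and 1582 and 1398 at dpi4. Its range was 297 to 663 in monocytes, 199.7 to 216 in neutrophils and 66.3 to 162 in dendritic cells, the last of which overlapped the 45.1 to 70.7 of T or NK cells. A small class of plasmacytoid dendritic cells (7 to 25 cells per library) held 1305 to 1633 CPM of *Ctsl*, close to the macrophages.

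*Ctsd* encodes the aspartic protease of the lysosome, which cystatins do not block. Its macrophage CPM was 6996 and 6958 at dpi2 and 5806 and 9617 at dpi4 in control and KO. *Ctsd* ranged from 1574 to 1783 in monocytes and from 763 to 1489.6 in neutrophils. Dendritic cells (299 to 695) overlapped T or NK cells (375 to 699), so a dendritic level of *Ctsd* above the background could not be shown.

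The exopeptidases trim peptides from an end. *Ctsa*, a serine carboxypeptidase that also protects lysosomal sialidase and galactosidase, ranged from 533 to 685 CPM in macrophages and from 318 to 339 in monocytes. *Ctsz*, a carboxypeptidase, ranged from 947 to 1188 in macrophages and from 791 to 854 in monocytes. *Ctsc*, which activates the granule serine proteases of leukocytes, was the only cathepsin of the 8 that was higher in monocytes (1017 to 1189.8) than in macrophages (569.8 to 896), without overlap, although the 48 control monocytes of dpi4 held 896. *Ctsc* in neutrophils (52.9 to 84.7) lay below the 97.3 to 105 of T or NK cells. *Ctsh*, an aminopeptidase, overlapped between dendritic cells (542 to 631) and macrophages (345 to 779). Macrophages in turn overlapped monocytes (307 to 395), which lay below dendritic cells.

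*Cst3* was highest in dendritic cells, at 5718 and 4349 CPM at dpi2 and 6585 and 8123 at dpi4 in control and KO. Neutrophils (1341 to 3084), monocytes (1591 to 2519) and macrophages (1196 to 2493) overlapped each other, and T or NK cells held 289.5 to 355. *Cstb* overlapped between monocytes (914 to 1809), macrophages (1038 to 2074) and neutrophils (621 to 1333), with 369 to 624 in dendritic cells.

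Between the genotypes, a gene was called different by size alone, if its CPM differed by at least 1.5-fold, the exact 95% interval of the ratio did not include 1 and both libraries together held 50 UMIs or more. In macrophages at dpi2, 1 of the 10 members was called, *Ctsl*, which was lower in KO, against 11.2% of the 11087 genes tested in either direction and 5.96% called lower. At dpi4, 1 of 10 was called, *Ctsd*, which was higher in KO, against 7.33% of 11930 genes in either direction and 3.19% called higher. The number called among the members was thus near the background at both times. The median log2 ratio of KO over control among the members was 0.01 at dpi2 and 0.06 at dpi4, beside −0.02 and 0.01 for all tested genes.

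**Figure D2:**
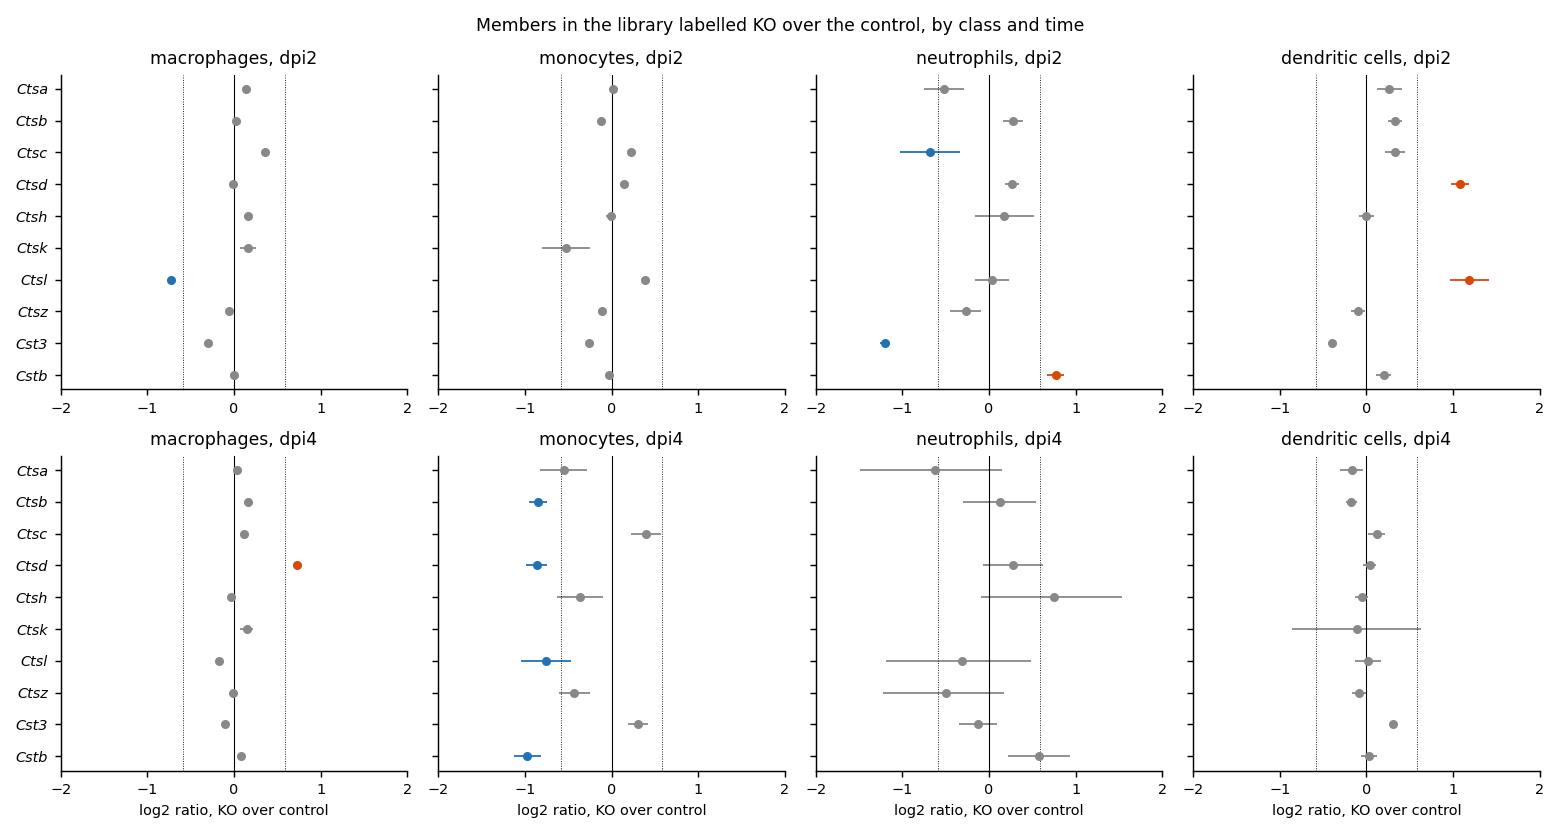
Log2 ratio of KO over control for each member in 4 classes at 2 and 4 dpi, with exact 95% intervals for counting error and dotted lines at 1.5-fold. In macrophages, *Ctsl* at dpi2 (−0.73) and *Ctsd* at dpi4 (0.73) lie beyond the lines; blue marks members called lower, orange those called higher, and members under 50 UMIs are not drawn.

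The macrophage log2 ratio of *Ctsl* at dpi2 was −0.73 (−0.74 to −0.71), from 118733 UMIs in control and 57059 in KO. Macrophages comprised several clusters, named here by their leading genes, and the genotypes held different shares of them. In the cluster led by *Pdpn*, *Hmga2* and *Htr2b*, *Ctsl* CPM was 4231 in 1126 control cells and 3572 in 180 KO cells. In the *Cd163*, *Lyve1* and *Gja1* cluster it was 1595 in 468 control cells and 1502 in 321 KO cells. In the cluster with *Jag1* and *Ppbp* among its leading genes it was 1425 in 61 control cells and 1828 in 433 KO cells. The *Txnip*, *Slc40a1* and *Pltp* cluster held 1242 in 85 control cells and 854 in 50 KO cells. The cluster with the highest *Ctsl* level therefore held most control macrophages and few KO macrophages, and the difference was called within 0 of these 4 clusters, in which 5.76% to 15.5% of all genes tested were called. With the KO clusters weighted by their shares in the control, the log2 ratio of *Ctsl* was −0.22 in place of −0.73, a weighting chosen after seeing the data.

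The difference of *Ctsd* at dpi4 was seen within clusters. The macrophage log2 ratio was 0.73 (0.72 to 0.73), from 314781 UMIs in control and 437964 in KO. Of the 10 macrophage clusters, 8 had at least 50 cells in both libraries at dpi4. *Ctsd* CPM was higher in KO in each of these 8 and was called in 3 of them, where 5.75% to 13.3% of all genes tested were called per cluster. In the *Txnip*, *Slc40a1* and *Pltp* cluster the level was 5213 in control and 10564 in KO. In the *Iigp1*, *Ifit2* and *Ifit3* cluster, which is marked by interferon-induced genes, it was 3088 and 5772. The *Slc40a1*, *Gdf15* and *Vcam1* cluster held 5533 in control and 9209 in KO. The other 5 clusters, which were not called, had log2 ratios of 0.13 to 0.49, and the highest level of all was that of the *Mmp12*, *Mfge8* and *Gpnmb* cluster, at 9134 in control and 12837 in KO. Weighted by the control's clusters, the log2 ratio of *Ctsd* was 0.60. At dpi2 the class levels of *Ctsd* were 6996 and 6958, a log2 ratio of −0.01.

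**Figure D3:**
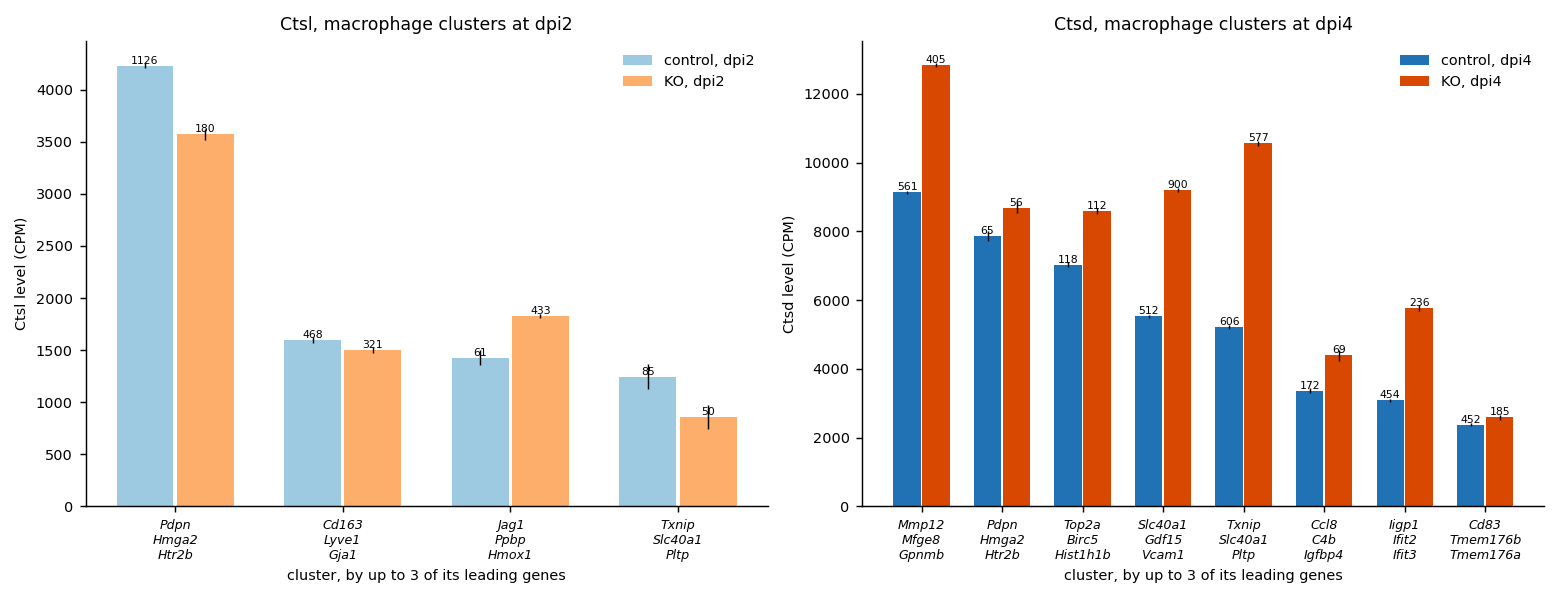
Bars of *Ctsl* CPM in 4 macrophage clusters at dpi2 and of *Ctsd* CPM in the 8 macrophage clusters compared at dpi4, in control and KO, with exact 95% Poisson intervals and cell numbers above the bars. *Ctsl* is highest in the *Pdpn* cluster, which held 1126 control and 180 KO cells, and *Ctsd* is higher in KO in each of the 8 clusters.

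*Ctsl* at dpi4 had a class log2 ratio of −0.18 in macrophages. It was called lower in KO in 2 of the 8 clusters compared, that led by *Cd83* and *Tmem176b* (−0.77) and that led by *Top2a* and *Birc5* (−0.64), the latter of dividing cells. *Ctsb* had macrophage log2 ratios of 0.02 at dpi2 and 0.16 at dpi4 and was called in none of the macrophage clusters compared.

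*Ctsk*, known as the collagen-degrading protease of osteoclasts, was present at 51.5 and 57.6 CPM at dpi2 and 55.8 and 61.8 CPM at dpi4 in control and KO macrophages. The UMIs were unevenly spread over cells, most of all at dpi4. Of all macrophages, 54 held at least 20 *Ctsk* UMIs each, a limit chosen after seeing the data: 7 and 7 at dpi2, and 23 and 17 at dpi4. They carried 14.2% and 34.2% of the macrophage *Ctsk* UMIs at dpi2, and 60.2% and 76.7% at dpi4, and the highest single cell held 428. Without them the *Ctsk* level was 44.5, 38.3, 22.6 and 14.7 CPM, in the order control and KO at dpi2, then control and KO at dpi4. Thinned to 2000 UMIs per cell, 7.27% (95% exact binomial interval 6.13 to 8.55) of control and 7.04% (5.57 to 8.76) of KO macrophages held a *Ctsk* UMI at dpi2, and 3.79% (3.12 to 4.55) and 2.29% (1.74 to 2.95) at dpi4. Cells under 2000 UMIs, 58 and 30 at dpi2 and 82 and 72 at dpi4, were left out of these shares. The unthinned shares were 31.7% and 31.5%, and 19.5% and 14.8%, at a median depth of 15303 to 25895 UMIs. Unthinned T or NK cells had shares of 1.27% to 2.78% at a median depth of 3952 to 4962 UMIs, and after thinning 0 to 1 such cell per library. A steady class level thus went with a lower share of cells with a *Ctsk* UMI at dpi4. Within the 8 macrophage clusters compared at dpi4 the log2 ratios of KO over control for *Ctsk* ran from −2.36 to 2.16, with 2 clusters called higher and 3 called lower in KO. In the *Top2a* cluster, called higher, 313 of the 683 *Ctsk* UMIs of the KO library lay in 1 cell, and in the *Iigp1* cluster, also called higher, 194 of 207 did. The clusters called lower had limits too. In the *Txnip* cluster 295 of 888 control UMIs and 428 of 488 KO UMIs lay in 1 cell each. The *Cd83* cluster had 49 control and 3 KO UMIs. The *Slc40a1*, *Gdf15* and *Vcam1* cluster had 155 and 119, with at most 31 in 1 cell.

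Among the exopeptidases, *Ctsa*, *Ctsh* and *Ctsz* had macrophage log2 ratios of KO over control between −0.06 and 0.16 at both times. *Ctsc* had 0.36 at dpi2, the largest positive ratio of a member at that time, and 0.12 at dpi4. Within clusters at dpi2, *Ctsc* was called higher in KO in the *Pdpn* cluster, at 329.6 in control and 496 in KO CPM, and in the *Txnip* cluster, at 603 and 1283. It was lower in KO, without being called, in the *Jag1* and *Ppbp* cluster, at 705 and 537. Across the macrophage clusters *Ctsc* was lowest in the *Pdpn* cluster of the control at dpi2, in which *Ctsl* had its highest level, and highest at 1641 in the *Ccl8* and *C4b* cluster of the KO at dpi4.

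The inhibitors were called in neither macrophage contrast between genotypes. The log2 ratio of *Cst3* was −0.30 at dpi2 and −0.10 at dpi4, and *Cst3* was lower in KO in each of the 4 macrophage and 4 monocyte clusters compared at dpi2 without being called in any. The log2 ratio of *Cstb* was 0.00 and 0.08.

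In monocytes at dpi2, none of the 10 members was called, against 11.4% of 10046 genes. Within the monocyte cluster led by *Vcan*, *Hp* and *Ifitm6* (463 control and 556 KO cells), in which 19.1% of 8334 genes were called, 4 members were called higher in KO. *Ctsb* CPM was 936 in control and 1622 in KO, and *Ctsd* was 376 and 1172.5. *Ctsl* was 276 and 702, and *Cstb* was 518 and 1107. The summed level of the 10 macrophage markers in these cells was 1346 in control and 3416 CPM in KO, and their median depth was 8938 and 12999.5 UMIs. At Leiden resolution 2 the genotypes fell unevenly over monocyte clusters with these leading genes, with 102 control and 606 KO cells in a *Vcan*, *Dmkn* and *Thbs1* cluster and 318 and 81 in an *Ifitm6*, *Hp* and *Chil3* cluster. The part of these in the 4 differences was not tested. No member was called in the other 3 monocyte clusters, in which 6.35% to 11.2% of all genes tested were called. At dpi4, with 48 and 70 monocytes, *Ctsb* (−0.85), *Ctsd* (−0.86), *Ctsl* (−0.76) and *Cstb* (−0.97) were called lower in KO, 4 of the 9 members with enough UMIs, against 11.9% of 3321 genes in either direction and 5.93% lower. For *Ctsl* the cells at equal depth went the other way: thinned to 2000 UMIs per cell, 27.1% (15.3% to 41.8%) of the control and 39.7% (28.0% to 52.3%) of the KO monocytes held a UMI, with overlapping exact binomial intervals, so no direction is read for it. The thinned shares of *Ctsd* were 72.9% (58.2% to 84.7%) and 75.0% (63.0% to 84.7%), while its mean thinned UMIs per cell were 4.56 and 2.49. Those of *Ctsb* (97.9% and 94.1%) and *Cstb* (68.75% and 64.7%) were lower in KO, also with overlapping intervals. These monocytes lay in different clusters: the *F10* and *Thbs1* cluster, which at dpi2 had the highest monocyte levels of these 4 genes, held 19 of the 48 control and 9 of the 70 KO cells, and the *Vcan* and *Hp* cluster, which had the lowest, held 16 and 34. The macrophage markers summed to 13709 CPM in these control monocytes and 8707 in the KO monocytes. The part of clusters and markers in these 4 calls was not tested.

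In neutrophils at dpi2, 3 of 9 members were called, against 25.7% of 5776 genes. *Cst3* was lower in KO, at 3084 CPM (4664 UMIs) in control and 1341 CPM (3978 UMIs) in KO, a log2 ratio of −1.20 (−1.26 to −1.14). *Cstb* was higher, at 783 and 1333 CPM, a log2 ratio of 0.77 (0.67 to 0.86). *Ctsc* was lower, with a log2 ratio of −0.68 (−1.02 to −0.33) from 128 and 157 UMIs. The secreted and the cytosolic inhibitor thus differed in opposite directions. The totals of the 2 libraries moved the scale of this contrast: of the genes called, 18.7% were higher in KO on the class totals and 64.6% with TMM factors, which shift every log2 ratio by 0.36. With TMM factors *Cst3* (−0.84) and *Cstb* (1.13) were still called and *Ctsc* (−0.32) was not. The 8 neutrophil markers summed to 53396 CPM in control and 73693 in KO, and the 5 eosinophil markers to 170 and 76.8. The genotypes also fell unevenly over finer clusters: at Leiden resolution 2 the class at dpi2 split into a cluster of 40 control and 714 KO cells, another of 414 and 76, and a cluster led by *Siglecf* of 174 and 33. The part of this in the 3 differences was not tested. *Cst3* in T or NK cells of the same libraries was 331 in control and 179 in KO.

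The stefins, cytosolic inhibitors related to cystatin B that neutrophils make, were also compared in neutrophils at dpi2. *Stfa1* had 12 UMIs in control and 307 in KO, *Stfa2l1* had 382 and 1766, and *BC100530* had 3 and 97. All 3 were called higher in KO, against 25.7% of all genes called. They are part of the list of further inhibitors below, of which 4 could be tested in neutrophils, and the other, *Serpinb6a*, was called lower (−0.93, from 32 and 33 UMIs). The 3 were named after their values were seen. The stefin genes are near-identical copies whose reads the counting could split or lose, so the level of each is uncertain. At dpi4, with 128 and 35 neutrophils, 0 of 8 members were called, against 12.7% of 1594 genes.

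In dendritic cells at dpi2, *Ctsd* (1.08, 0.98 to 1.19) and *Ctsl* (1.19, 0.97 to 1.41) were called higher in KO, 2 of 9 members against 9.65% of 7966 genes in either direction and 4.66% higher. The dendritic CPM was 299 in control and 631 in KO for *Ctsd* and 66.3 and 151 for *Ctsl*. These KO levels rest in large part on few cells. For each gene, the 2 of 225 KO cells with the most UMIs held 51.4% (*Ctsd*) and 36.5% (*Ctsl*) of its UMIs. The top 3 of 298 control cells held 12.5% and 14.6%. T or NK cells of the same libraries held 375 and 390.4 CPM of *Ctsd* and 70.4 and 32.5 of *Ctsl*, so that the control levels of dendritic cells were no higher than those of T or NK cells. Within the main dendritic cluster, led by *Cd209a*, *Ctsd* CPM was 318 in control and 348 in KO, and *Ctsl* was 70.1 and 112, of which only *Ctsl* was called. Of the 7355 genes tested there, 9.88% were called. The macrophage markers summed to 855 CPM in control and 1397 in KO dendritic cells, and with doublets kept both ratios turned, to −0.14 for *Ctsd* and −0.28 for *Ctsl*. At dpi4, 0 of 10 members were called in dendritic cells, against 5% of 8604 genes.

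Between dpi2 and dpi4, macrophage levels of the members moved in both directions. In control, 4 of 10 were called, against 35% of 11721 genes, and in KO 3 of 10, against 32.1% of 11423. The share of members called was near that of all genes in each genotype. *Ctsh* was higher at dpi4, with a log2 ratio of dpi4 over dpi2 of 1.18 in control and 0.98 in KO. *Cst3* was also higher, with 0.76 and 0.96, although the control value was not called with monocytes pooled in (0.58). *Cstb* was lower, with −0.99 and −0.92. The macrophages of the 2 times lay mostly in different clusters, such as the *Pdpn* cluster with 1126 control cells at dpi2 and 65 at dpi4, and the *Mmp12* cluster with 26 and 561. Within clusters with at least 50 cells at both times the ratios were not uniform. In the *Txnip* cluster 22.4% of all genes tested were called in control and 19.5% in KO. There *Ctsh* (1.59 in control and 1.36 in KO) and *Cstb* (−1.47 and −0.76) were called, and *Cst3* (0.57 and 0.55) was not. In the *Pdpn* cluster none of the 3 was called, with 0.05 and −0.46 for *Ctsh*, 0.30 and 0.36 for *Cst3*, and −0.42 and −0.21 for *Cstb*. Of all genes tested in that cluster, 9.1% were called in control and 10.6% in KO. In the *Top2a* cluster of the control *Ctsh* was called higher (1.10), and *Cst3* (0.16) and *Cstb* (0.29) were not called. *Ctsl* was called lower in control (−1.02) but not in KO (−0.48), and in control it was called in none of the *Pdpn* (−0.55), *Txnip* (−0.40) and *Top2a* (0.57) clusters, nor with monocytes pooled in (−0.38). *Ctsd* was called in neither genotype in the class (−0.27 and 0.47). In the *Txnip* cluster *Ctsd* was called higher in KO (1.46) but not in control (0.17), and in the *Pdpn* cluster in neither (−0.18 and −0.18). These time ratios share libraries with the genotype ratios above, so that the low *Ctsl* level of the KO library at dpi2 enters both. *Ctsa*, *Ctsb*, *Ctsc*, *Ctsk* and *Ctsz* had class time ratios of −0.07 to 0.53. In the *Txnip* cluster *Ctsa* (0.71 in control and 0.72 in KO) and *Ctsk* (0.77 and 2.94) were called higher. The KO *Ctsk* ratio rests on 2 UMIs at dpi2. *Ctsc* (0.76 and −0.29) was called higher in that cluster in control only. *Ctsb* (0.39 and 1.21) and *Ctsz* (0.50 and 0.60) were called higher in KO only. In the *Pdpn* cluster *Ctsc* (0.79) was called higher and *Ctsk* (−0.73) lower in control, and none of these genes in KO.

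**Figure D4:**
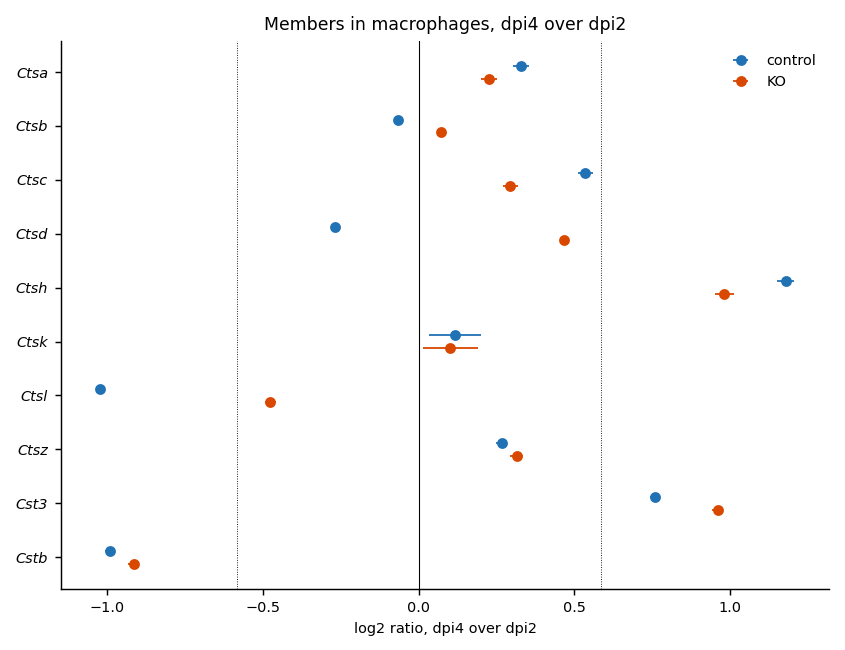
Log2 ratio of dpi4 over dpi2 in macrophages for the 10 members, in control and KO, with exact 95% intervals for counting error. *Ctsh* and *Cst3* lie above 1.5-fold and *Cstb* lies below it in both genotypes, and *Ctsl* lies below it in control.

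In the other classes the time ratios rest on few cells at dpi4. In monocytes, 4 of 10 members were called in control, all higher (*Ctsa* 0.64, *Ctsd* 0.83, *Ctsh* 0.72 and *Ctsk* 1.57, against 12.5% of all genes in either direction and 8.11% higher), and in KO *Ctsl* (−1.16) and *Cstb* (−0.96) were lower and *Cst3* (0.66) was higher, against 16.8%. The control *Ctsk* ratio rests on 23 UMIs at dpi4, 12 of them in 1 cell. The *F10* cluster, which had the highest monocyte levels of *Ctsa*, *Ctsd*, *Ctsh* and *Ctsk* at dpi2, held 620 of 2600 control monocytes at dpi2 and 19 of 48 at dpi4, and its part in these ratios was not tested. With macrophages pooled in, *Ctsd* in control (0.30) and *Ctsl* in KO (−0.15) were not called, but the pooled cells of dpi4 were nearly all macrophages. TMM factors shift the monocyte time ratios by −0.12 in both genotypes, and *Ctsa* in control (0.53) and *Cst3* in KO (0.54) were then not called. Summed macrophage markers in monocytes were 4026 CPM at dpi2 and 13709 at dpi4 in control, and 4298 and 8707 in KO. In neutrophils *Ctsd* was called lower (−0.70 in control and −0.68 in KO) and *Ctsh* was called higher (0.79 and 1.36), against 30.4% and 22.7% of all genes. The KO ratio of *Ctsd*, with 35 cells at dpi4, was not called with a mitochondrial share under 5% (−0.37) or with each library clustered by itself (0.0659). *Cst3* (0.65) and *Ctsc* (1.07, from 157 and 11 UMIs) were also called higher in KO neutrophils. Summed macrophage markers in neutrophils were 618 CPM at dpi2 and 3170 at dpi4 in control, and 534 and 2703 in KO, and the 5 eosinophil markers summed to 170 and 492, and 76.8 and 333. At resolution 2 the *Siglecf* cluster held 174 control and 33 KO neutrophils at dpi2, and 115 and 26 at dpi4, most of the cells of the class at the later time. The part of these in the time ratios was not tested. On TMM factors, which shift the neutrophil time ratios by −0.40 in control and −0.75 in KO, *Ctsh* was no longer called in either genotype, nor were *Ctsc* and *Cst3* (−0.10) in KO. With these factors 24.1% of the called genes were higher in control neutrophils, in place of 66.3% on the class totals, and 15.1% in place of 75.4% in KO. In monocytes the same shares were 47.6% in place of 64.8% in control and 45.0% in place of 62.0% in KO. In dendritic cells *Ctsb* (0.80), *Ctsd* (1.18) and *Ctsl* (1.26) were called higher at dpi4 in control, against 20.7% in either direction and 10.4% higher, where the macrophage markers summed to 855 and 4929 CPM. Within the *Cd209a* cluster all 3 were called higher in control (0.81, 1.25 and 1.20) and in KO (0.73, 1.08 and 0.70), against 23% and 19.8% of all genes. In the class in control, none of the 3 was called with doublets kept (0.44, 0.32 and −0.0154), and *Ctsb* was also not called with a mitochondrial share under 5% (0.52) or at least 200 detected genes (0.49). The control levels of *Ctsd* and *Ctsl* at dpi2, as given above, were no higher than those of T or NK cells. In KO dendritic cells *Cst3* was called higher (0.90) and *Cstb* lower (−0.73), against 17.5%. Within the *Cd209a* cluster neither was called (0.45 and −0.40), and the *Xcr1* and *Ccr7* clusters went from 19 and 25 of 225 KO dendritic cells at dpi2 to 56 and 55 of 381 at dpi4.

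**Figure D5:**
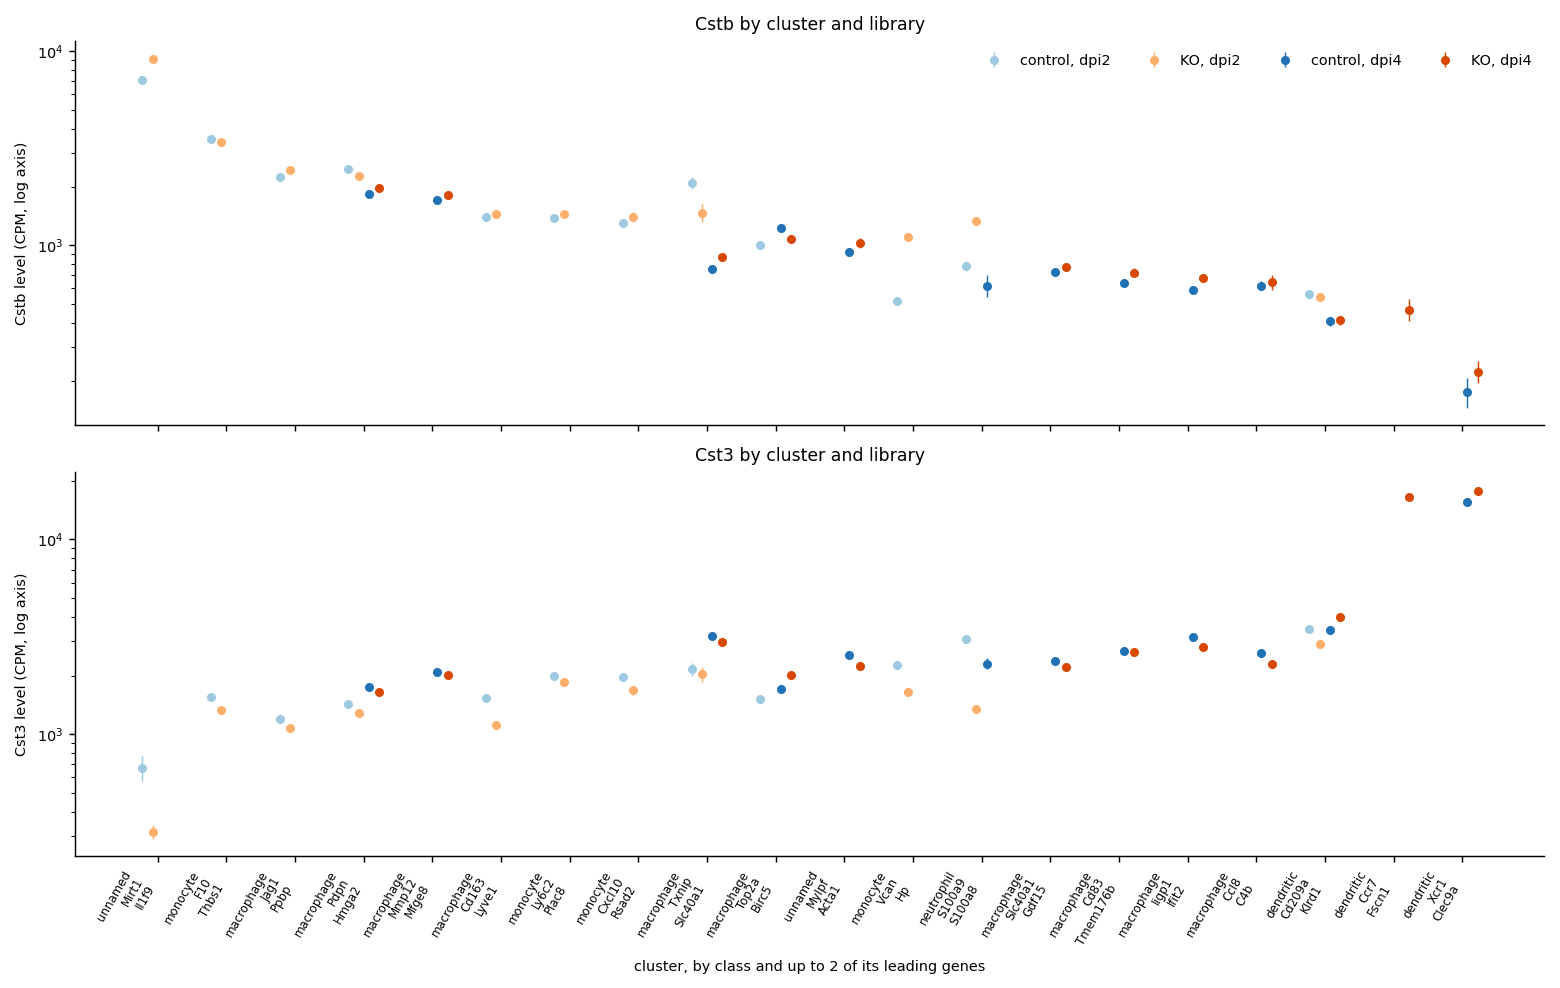
*Cstb* and *Cst3* CPM (log axis) in each cluster and library with at least 50 cells, with exact 95% Poisson intervals. *Cstb* is highest in the unnamed cluster led by *Mirt1* (7110.3 and 9072), and *Cst3* in the dendritic clusters led by *Xcr1* and by *Ccr7*.

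The inhibitors varied more within classes than the class levels show. In dendritic cells, *Cst3* CPM was 2919 to 3979 over the 4 libraries in the *Cd209a* cluster. It was 15473 in control and 17749 in KO in the cluster led by *Xcr1* and *Clec9a*, markers of cross-presenting dendritic cells, at dpi4. It was 16444 in the cluster led by *Ccr7* and *Fscn1*, markers of migrating dendritic cells, which had at least 50 cells only in KO at dpi4. In monocytes at dpi2, *Cstb* was 518 in the *Vcan* cluster and 3525 in the *F10* and *Thbs1* cluster of the control, a range of 6.80-fold. *Cst3* in the same 2 clusters was 2267 and 1548. In that *F10* cluster of the control the monocyte levels of *Ctsb* (5247), *Ctsd* (3631), *Ctsl* (769) and *Ctsk* (48.3) were highest as well.

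Within macrophages, the members differed in how far they varied over clusters and libraries. *Ctsa* spanned 2.32-fold over 25 points of cluster and library, *Ctsb* 2.73-fold and *Ctsz* 2.79-fold. *Ctsd* spanned 5.40-fold, *Ctsc* 4.98-fold, *Ctsh* 4.17-fold and *Ctsl* 12.6-fold. *Cst3* spanned 2.97-fold and *Cstb* 4.18-fold. *Ctsk* spanned 152-fold, from 1.33 to 202 CPM, with the uneven spread over cells described above. The *Cd83* and *Tmem176b* cluster at dpi4 held the lowest macrophage levels of *Ctsa*, *Ctsb*, *Ctsd* and *Ctsl*.

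Related genes were compared in macrophages as fixed lists. The shares of all genes called, given above, were 11.2% and 7.33% between genotypes at dpi2 and dpi4, and 35% and 32.1% with time in control and KO. Of 10 further lysosomal proteases, 0 of 7 tested were called between genotypes at dpi2 and 1 of 8 at dpi4, *Ctse*, at 2.05 in control and 0.944 CPM in KO. With time, *Ctss*, the antigen-processing cathepsin S, was called higher in control (0.65) and KO (0.70), and so were *Napsa* (1.12 and 1.10) and *Ctsf* (4.48 and 4.18, from 14 UMIs in each dpi2 library). *Ctse* was called higher in control (0.99) and not in KO, so that 4 of 8 in control and 3 of 8 in KO were called with time. Of 9 further cystatins, stefins and serpins, 3 could be tested at dpi2: *Cst7* was called higher in KO (2.41 and 6.07 CPM), and *Serpinb1a* (6.37 and 2.86) and *Serpinb6a* (223.6 and 145) were called lower. At dpi4 *Cst7* was again called higher in KO, at 3.04 and 5.23 CPM. With time, *Serpinb6a* was called higher (0.63 in control and 1.41 in KO) and *Serpinb1a* lower (−1.54 and −0.86). Of 10 genes for delivery and partners of the enzymes, 0 were called between genotypes at dpi2 and 1 at dpi4, *Sort1*, which encodes sortilin, at 29.4 in control and 54.5 CPM in KO. With time, *Glb1*, a lysosomal galactosidase, was called higher in control (0.73) and KO (1.01), and *Sort1* (0.71) and *Psap* (0.67) were called higher in KO. The receptor gene *Igf2r* was called lower in control (−1.06) and KO (−0.60), and *Gnptab* was called lower in control (−0.61).

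Over the 17 points of class and library with at least 50 cells, and among 11316 genes, the gene most like *Ctsb* in log2 CPM was *Cd36* (Pearson r = 0.974) and that most like *Ctsl* was *Lhfpl2* (0.978). For *Ctsd* it was *Stab1* (0.951), for *Cst3* *Wdfy4* (0.955) and for *Cstb* *Arl8a* (0.983). For the others it was *Rragc* (*Ctsa*), *Aif1* (*Ctsc*), *Abca9* (*Ctsh*), *Wls* (*Ctsk*) and *Tns3* (*Ctsz*). Among the members, *Ctsb* and *Ctsl* had r = 0.943 and *Ctsa* and *Ctsz* 0.944, whereas *Ctsd* and *Cst3* had 0.04. Points of a library share its depth and free RNA, so these values describe the pattern only.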

How the data were processed

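CD45+ cells were measured by droplet single-cell RNA sequencing in 4 libraries. The values used are raw UMI counts per gene and cell deposited by the authors, made with Cell Ranger 6.1.2 on mm10 per the labels; the labels name the single cell 3′ chemistry in another version than the study's methods do. Cells with a mitochondrial share under 10% and at least 500 genes were kept, and the highest Scrublet scores (0.8% per 1000 cells) were removed as doublets. The 2000 most variable genes outside the gene lists, 30 components, 15 neighbours and Leiden resolution 1 (scanpy 1.11.5, leidenalg 0.10.2) gave 27 clusters, 2 of them unnamed. Names came from 97 markers, 94 of them matched, and the scoring rule was set with the data in view. UMIs were summed per class and library and divided by the class total. Intervals were exact Poisson, binomial and conditional binomial (scipy 1.17.1, numpy 2.4.6) and cover counting error only. Total UMIs per library were 57010520 to 80228489. The ratio script was checked on simulated data.

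The named genes were the 10 members, the fixed lists of related genes where called in macrophages, and for each member the genes most like it. The stefins, *Bach1*, *Lyz2*, *Hmox1* and the leading genes of clusters were named outside this rule, the stefins after their values were seen. Members and lists were chosen with earlier results of these data known. The alternatives were TMM factors (edgeR 4.0.16), other totals, means over cells, other limits of fold, UMIs, mitochondrial share and genes, doublets kept, resolution 2, each library clustered by itself, and monocytes pooled with macrophages. The weighting by clusters and the limit of 20 *Ctsk* UMIs were chosen after seeing the data. B cells (7 to 17 per library) were left out. Some leading genes of clusters are not reported here.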

Additional observations from a re-analysis of the deposited data

Results flagged for a closer look

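*Ctsl* and *Ctsd* had log2 ratios called in opposite directions in different classes, and in each case the difference between the classes was not tested. At dpi2, *Ctsl* had a log2 ratio of KO over control of −0.73 in macrophages and 1.19 in dendritic cells. The first was not called with monocytes pooled in (−0.42) or with clusters weighted as in the control (−0.22), and the second turned with doublets kept (−0.28), from a control level no higher than that of T or NK cells (66.3 and 70.4 CPM). In the KO library, 2 of the 225 dendritic cells held 36.5% of the dendritic *Ctsl* UMIs. *Ctsd* at dpi4 had 0.73 in macrophages and −0.86 in the 48 and 70 monocytes. With macrophages pooled in it was 0.72. These monocytes were few among the 3009 control and 2635 KO cells pooled, so the pooled ratio follows the macrophages and does not test the monocyte value. For dpi4 over dpi2 in control, *Ctsd* had 0.83 in monocytes (0.30 and not called with macrophages pooled in) and 1.18 in dendritic cells but −0.70 in neutrophils, and *Ctsl* had −1.02 in macrophages and 1.26 in dendritic cells. With doublets kept the dendritic ratios were 0.32 for *Ctsd* and −0.0154 for *Ctsl*, neither called, and with monocytes pooled in the macrophage ratio of *Ctsl* was −0.38, not called.

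*Cstb* had its highest level in a cluster that no class contains, led by *Mirt1*, *Il1f9*, *Irg1* and *Ccl3*, with 88 control and 484 KO cells at dpi2. Its CPM there was 7110.3 (6787 to 7445) in control and 9072 (8934 to 9211) in KO, above the 134 to 277 of T or NK cells (36 to 132 cells per library). Thinned to 2000 UMIs per cell, the mean number of *Cstb* UMIs was 14.9 and 18.7. The median depth of these cells was 2797 and 3556 UMIs. *Cst3* was called lower in KO there, at 668 and 315 CPM, while 26.6% of all genes tested were called.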

How the results depend on the processing

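No paired analysis was possible because each group has 1 library. Of 182 member counts under the alternatives, 149 stayed within 1.5 times the main count and 33 moved; the cause was not tested. In macrophages the genotype count at dpi2 went from 1 to 0 with a fold limit of 2, with monocytes pooled in and with clusters weighted as in the control, and at dpi4 from 1 to 0 (fold limit of 2) and 2 (each library clustered by itself); the control time count went from 4 to 2 (fold limit of 2), and the KO one from 3 to 0 (fold limit of 2) and 5 (mean of cells' CPM). In monocytes the dpi2 count went from 0 to 1 (mean of cells' CPM, resolution 2), the dpi4 count from 4 to 0 (fold limit of 2) and 1 (pooled), the control time count from 4 to 1 (fold limit of 2) and the KO one from 3 to 1 (fold limit of 2) and 5 (each library by itself). In neutrophils the dpi2 count went from 3 to 1 (fold limit of 2), the dpi4 count from 0 to 1 (TMM), 2 (mean of cells), 3 (mitochondrial share under 5%) and 4 (each library by itself), the control time count from 2 to 4 (TMM), 0 (fold limit of 2) and 1 (at least 200 UMIs), and the KO one from 4 to 2 (fold limit of 2). In dendritic cells the dpi2 count went from 2 to 0 (at least 200 genes, doublets kept) and 7 (each library by itself), the dpi4 count from 0 to 1 (mean of cells, at least 200 genes, resolution 2) and 3 (each library by itself), the control time count from 3 to 7 (each library by itself), and the KO one from 2 to 0 (fold limit of 2) and 4 (doublets kept). Called values turned for *Ctsb* (0.16), *Ctsd* (0.72) and *Cstb* (0.0695) in monocytes pooled with macrophages, for KO neutrophils over time in *Cst3* (−0.10, TMM) and *Ctsd* (0.0659, each library by itself), and with doublets kept in dendritic cells for *Ctsd* (−0.14), *Ctsl* (−0.28) and the control time ratio of *Ctsl* (−0.0154), where *Ctsb* (0.44) and *Ctsd* (0.32) also lost their calls. At dpi4 the pooled cells were nearly all macrophages, 2961 of 3009 in control and 2565 of 2635 in KO. Pooling therefore does not test the monocyte calls of dpi4. Over the alternatives other than the weighting, *Ctsd* in macrophages at dpi4 ranged from 0.66 to 0.75, and *Ctsl* at dpi2 from −0.75 to −0.42, where the call was lost on pooling; weighted, *Ctsd* was 0.60 and *Ctsl* −0.22, not called. Calls were also lost for *Ctsd* and *Ctsl* in dendritic cells at dpi2 (at least 200 genes), and over time for *Ctsa* in control monocytes (doublets kept), *Ctsh* in control neutrophils (at least 200 UMIs), and *Ctsc* (at least 200 UMIs or genes, doublets kept) and *Cst3* (each library by itself) in KO neutrophils. Clustered by itself, the control library at dpi4 had no monocyte cluster, which gave no value.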

Other observations

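The 54 macrophages with at least 20 *Ctsk* UMIs, picked after their values were seen, are described by their other genes with no test. They came from all 4 libraries and from 2 to 6 clusters per library, and their median depth was 31596 to 47316 UMIs, beside 15216 to 25818.5 in the other macrophages. *Acp5*, which encodes the acid phosphatase of osteoclasts, was 1477 CPM in them and 199.8 in the other macrophages, and 52 of the 54 cells held a UMI of it. *Mmp9*, a gelatinase, was 273 and 5.38 CPM, from 13 of the 54 cells, and *Slc9b2* was 77.7 and 1.37 CPM, from 24 of them. *Jdp2* was 199.9 and 35.7. The general macrophage genes *Adgre1* (213 and 510) and *Cd68* (1027 and 999.5) were present in both, and of the fibroblast genes *Col1a1* was 3.49 and 4.84, *Col3a1* 3.05 and 5.16, and *Dcn* 24.4 and 1.11, from 3 of the 54 cells.

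An unnamed cluster led by muscle transcripts (*Mylpf* and *Acta1*, 359 control and 66 KO cells at dpi4) had macrophage markers at 48108.5 and 38668 CPM. *Ctsd* was called higher in KO there, at 6074 and 9939 CPM, and *Ctsl* (−0.77) and *Ctsk* (−1.81) were called lower, 3 of 10 members against 9.29% of 8267 genes.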
